A study of Mus musculus with 4 samples.

Results

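Wnt signaling was examined at the level of its secreted ligands, its cell surface receptors, its inhibitors and the genes it feeds back on, in RNA-seq of primary mouse astrocyte cultures. The members were the protein-coding genes whose symbol names a Wnt ligand, a Frizzled (Fzd) receptor, a secreted Frizzled-related protein (Sfrp), a Dickkopf protein (Dkk), an R-spondin (Rspo), an Axin, the co-receptors Lrp5 and Lrp6, Wif1, Lef1 or Tcf7. There were 42 such genes among the 25393 listed, taken by symbol. Astrocytes of untreated C57BL/6 pups at postnatal day 1 came from cortex and hippocampus. The label gave wild type (WT) for 2 libraries and tet1-/- for the other 2, a constitutive Tet1 knockout (KO) that is present in every cell type of the pup. For each isolation 2 mice were used, the cells were cultured for about 7 days, shaken at 260 rpm and kept for a further 24 h before RNA was taken.

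Wnt ligands are lipid-modified secreted proteins that bind Frizzled receptors. Together with the co-receptor Lrp5 or Lrp6 they stop the Axin complex from degrading beta-catenin, which then acts with Tcf and Lef factors on target genes such as Axin2, while other ligands such as Wnt5a act mainly through Ror and Ryk receptors without beta-catenin. Sfrp, Dkk and Wif1 proteins act outside the cell on ligands or co-receptors, and R-spondins raise the amount of receptor at the surface. In the developing brain, ligands from the midline of the cortex pattern the hippocampus, and Wnt7a and Wnt7b from neural cells are needed for brain vessels.

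The 4 libraries held between 18749610 and 22673555 reads on genes. Tet1 itself had 266 and 121 normalized counts in WT against 173 and 463 in the KO-labelled libraries, so the targeted gene was not lower in them and every direction below rests on the label. The study itself reports that Tet1 mRNA could hardly be detected in its KO astrocytes. A count per gene cannot show which exons were read. Normalized counts are reads divided by 1 size factor per library, and 1 read was worth between 0.901 and 1.07 of them. Levels of different genes are compared only as FPKM, which also divides by gene length. All 10 astrocyte markers were present, with a summed level of 1502 and 1447 FPKM in WT and of 2586 and 387 in replicates 1 and 2 of the KO-labelled libraries. Gfap made up much of that sum, at 687 and 765 FPKM in WT against 1871 and 117. Of these 10 markers, 2 (Slc1a2 and Sox9) were lower at an unadjusted p under 0.05 from limma and none was higher. Over all genes tested, 9.18% were lower and 4.54% higher at that threshold. Without overlap, 5 of the markers were lower (25.4% of all genes) and 1 was higher (22.5% of all genes). The 12 microglial markers summed to 40.8 and 83.2 FPKM in WT and to 5.83 and 3.12 in the KO-labelled libraries, with 10 of 12 lower at an unadjusted p under 0.05 from limma and none at 0 in every library. The 8 markers of dividing cells summed to 1.98 and 10.2 FPKM in WT against 23.5 and 50.2, and 8 of 8 were higher at that threshold. The part of these markers in the results below was not tested. Xist, expressed from the inactive X chromosome of female cells, had 8.54 and 0.92 normalized counts in WT against 2896 and 13367 in the KO-labelled libraries, so that label and sex cannot be told apart. In bulk RNA, fewer cells of a type and less RNA per cell cannot be told apart either.

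Of the 7 members with an unadjusted p under 0.05 in the comparison below, the promoters of the 5 that the promoter table held are shown first, because Tet1 acts on methylated cytosines, which lie mostly in CpG dinucleotides. CpG dinucleotides are in capitals, and each run reads 5′ to 3′ on the strand of the gene. The runs come from the RefSeq promoter table for GRCm38.p6 and end at the RefSeq start site or, for Fzd9 and Wnt4, where the gene of the deposited table begins. For Fzd1 and Fzd7 the RefSeq start site lies outside the gene as listed. They lie at chr5:4758217-4758466 on the minus strand (Fzd1), chr1:59481897-59482146 on the plus strand (Fzd7), chr5:135251231-135251297 on the minus strand (Fzd9), chr4:137277385-137277488 on the plus strand (Wnt4) and chr19:44493222-44493471 on the plus strand (Wnt8b). The first 3 belong to receptors that were higher and the last 2 to ligands that were lower in the KO-labelled libraries.
Fzd1: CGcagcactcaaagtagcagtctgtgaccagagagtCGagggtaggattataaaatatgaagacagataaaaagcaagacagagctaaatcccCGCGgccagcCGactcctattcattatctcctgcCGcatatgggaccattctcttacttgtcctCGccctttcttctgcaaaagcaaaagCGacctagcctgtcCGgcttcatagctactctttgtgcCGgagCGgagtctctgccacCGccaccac
Fzd7: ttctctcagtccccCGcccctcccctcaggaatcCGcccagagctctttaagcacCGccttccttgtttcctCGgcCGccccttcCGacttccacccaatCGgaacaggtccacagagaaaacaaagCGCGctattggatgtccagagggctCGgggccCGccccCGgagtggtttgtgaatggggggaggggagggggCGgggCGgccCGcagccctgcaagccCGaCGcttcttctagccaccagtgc
Fzd9: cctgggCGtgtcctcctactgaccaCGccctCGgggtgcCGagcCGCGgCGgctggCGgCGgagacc
Wnt4: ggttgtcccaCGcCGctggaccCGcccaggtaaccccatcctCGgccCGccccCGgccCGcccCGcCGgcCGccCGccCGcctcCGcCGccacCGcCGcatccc
Wnt8b: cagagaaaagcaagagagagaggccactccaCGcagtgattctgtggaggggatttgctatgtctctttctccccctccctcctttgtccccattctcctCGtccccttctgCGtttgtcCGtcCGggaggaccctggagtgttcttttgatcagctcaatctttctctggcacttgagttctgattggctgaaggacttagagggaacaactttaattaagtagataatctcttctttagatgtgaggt

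In the 250 bases before the start site, Wnt4 had 44 CpG dinucleotides, Fzd9 had 42, Fzd7 had 17, Fzd1 had 12 and Wnt8b had 5. Of all promoter windows of that length, 99.5% had fewer than Wnt4, 99.1% fewer than Fzd9, 76.5% fewer than Fzd7, 66.5% fewer than Fzd1 and 44.4% fewer than Wnt8b. The table matched 26 of the 42 members with 33 windows, whose median was 21 CpG dinucleotides against 6 over all 32851 windows. The Tcf and Lef motif, searched as CTTTGAT or CTTTGAA on both strands, was found in 2 of the 33 member windows, 1 of Wnt5b and 1 of Wnt11, or 6.06%, against 7.48% of all windows. High CpG counts were held by a receptor that was higher and by a ligand that was lower. RNA libraries do not measure methylation, and a link between CpG count and direction was not tested. Wnt5a and Dkk3 were not matched.

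Of the 42 members, 19 had at least 1 FPKM in every library. The member with the highest mean was Sfrp1, a secreted inhibitor, with a mean level above 99.4% of the listed genes. Among the ligands, Wnt5b, Wnt7a, Wnt9a and Wnt5a led. Among the receptors, Fzd7, Fzd2 and Fzd1 led, and Fzd9 and Fzd10 were near or below 1 FPKM in every library. At the other end, 20 members had a mean under 50 normalized counts, and 13 of these had fewer than 3 reads, the detection floor, in at least 1 library. Wnt8a was under the floor in all 4 libraries. Of the 42 members, 15 overlap a gene on the opposite strand in the GENCODE annotation, among them Wnt5a, Wnt5b, Wnt7b and Axin2, and reads of such partners cannot be told apart where strand was not used in counting.

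**Figure D1:**
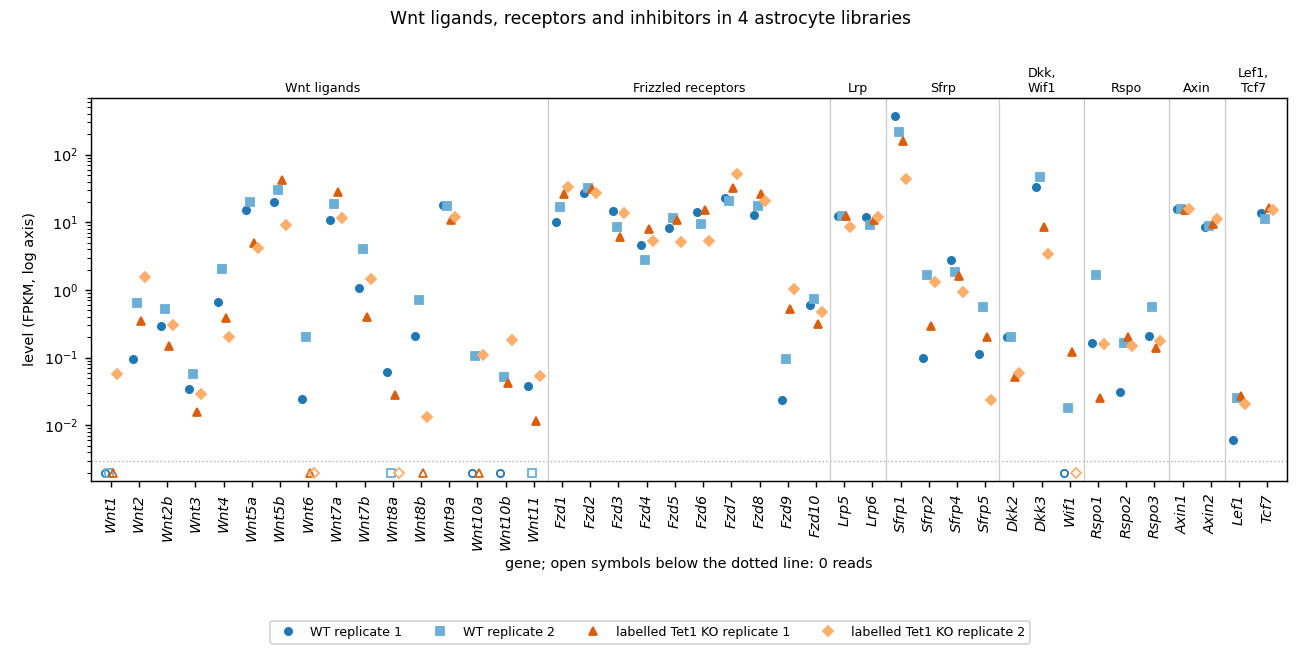
Level of each of the 42 members in each library (FPKM on a log axis), grouped by role, with open symbols for 0 reads. Sfrp1 has the highest mean level and lies between 43.2 and 379 FPKM, and Axin1 lies between 15.1 and 15.6 FPKM in every library.

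The labels were set against each other in limma, on log2(normalized count + 1), for the 22094 genes that averaged at least 1, among them 40 of the 42 members. This scale understates the change of low genes. Of the 40 members, 7 had an unadjusted p under 0.05, against 13.7% of all genes tested. The 3 that were higher in the KO-labelled libraries were Fzd1, Fzd7 and Fzd9, where 4.54% of all genes tested were higher, and the 4 that were lower were Wnt4, Wnt5a, Wnt8b and Dkk3, where 9.18% were lower. No member and no other gene reached an adjusted p under 0.05 in limma or in edgeR, which called 2733 genes, 12.4% of those tested, at an unadjusted p under 0.05. By that measure edgeR gave 3 members higher and 4 lower, against 4.23% and 8.14% of all genes. DESeq2 on the recovered reads called 4 members at an adjusted p under 0.05 (Wnt5a, Dkk3, Wnt8b and Fzd9), against 4.92% of all genes. Fzd9 was the 1 that was higher, where 1.29% of all genes were higher, and the other 3 were lower, where 3.63% were lower. In 20 of the 40 members both libraries of one label lay above both of the other, 7 higher (22.5% of all genes tested) and 13 lower (25.4%) in the KO-labelled libraries, or 47.9% of all genes in either direction. The log2 fold change was above 0 in 18 of the 40 members and in 46.3% of all genes, with medians of -0.21 and -0.07. Counts by limma and by overlap were thus near the shares over all genes, the DESeq2 count was above its share, and neither was tested. The account below is of single members. With 2 libraries per label, the smallest two-sided p of an exact permutation test for 1 gene is 0.333.

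**Figure D2:**
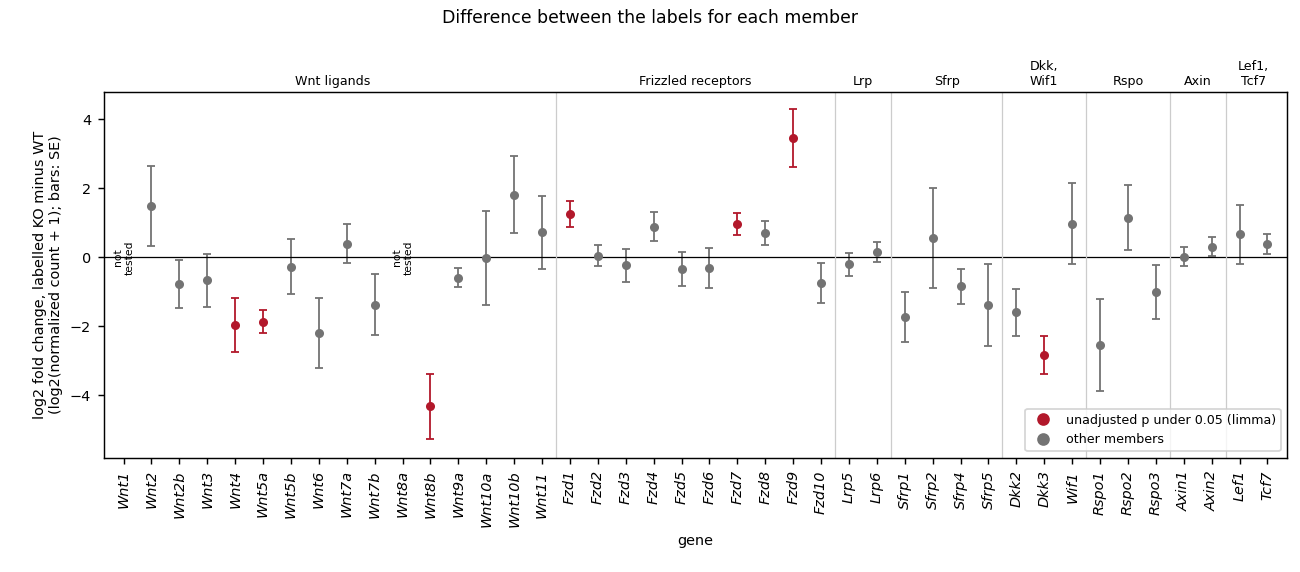
Log2 fold change of each member between the labels, with standard errors from limma. Wnt8b (-4.32) and Dkk3 (-2.83) lie lowest and Fzd9 (3.45) highest, and red points have an unadjusted p under 0.05.

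Of the 14 ligands tested, 3 were lower at an unadjusted p under 0.05 (9.18% of all genes), none was higher (4.54% of all genes), and 6 were lower without overlap (25.4% of all genes). Wnt5a signals mainly through Ror receptors. Wnt5a (ENSMUSG00000021994, chromosome 14 of mm10 from 28504750 to 28527448, plus strand) had 2361 and 3264 normalized counts in WT against 870.2 and 669.7 in the KO-labelled libraries. Both KO-labelled libraries lay below both WT libraries, and the differences between single libraries ran from -2.28 to -1.44 on the log2 scale. WT averaged 2812 ± 638 (SD, n = 2) and the KO-labelled libraries 770.0 ± 142 (SD, n = 2). The log2 fold change was -1.86 (standard error 0.33). The adjusted p was 0.151 from limma and 0.0017 from DESeq2. Its unadjusted p stayed under 0.05 in all 15 alternatives tried, and dropping single libraries gave fold changes between -2.09 and -1.63. The summed microglial markers ran in the same order of libraries as Wnt5a. Of the astrocyte markers, Slc1a3 and Aldh1l1 had that order too and the others did not. The oligodendrocyte marker Mbp, the mural marker Myh11 and the ependymal marker Ccdc153 also had it. The part of all these markers in this result was not tested. An antisense gene overlaps Wnt5a, and whether reads were counted by strand is not given in the sources used here.

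Wnt5b, the nearest relative of Wnt5a, did not share this pattern. It had 1078 and 1662 normalized counts in WT, 2507 in KO-labelled replicate 1 and 487.6 in KO-labelled replicate 2. The highest and the lowest value thus both came from KO-labelled libraries, and the log2 fold change was -0.27 (standard error 0.79). The adjusted p was 0.903 from limma. Without KO-labelled replicate 1 the fold change was -1.46, and without KO-labelled replicate 2 it was 0.91. The gene overlaps the coding gene Fbxl14 on the opposite strand. As a ratio of FPKM within a library, Wnt5a to Wnt5b was 0.743 and 0.666 in WT against 0.118 and 0.466 in the KO-labelled libraries.

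Wnt9a, a ligand of the canonical pathway, differed little within each label. It had 1212 and 1192 normalized counts in WT against 798.5 and 792.3 in the KO-labelled libraries. The 4 differences between single libraries lay between -0.61 and -0.58 on the log2 scale. As a log2 fold change, this was -0.59 (standard error 0.28, unadjusted p = 0.0798, adjusted p = 0.424 from limma), and limma's standard error combines the spread of the gene with that of other genes. Wnt9a did not pass the threshold.

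Wnt8b, a ligand of the medial cortex and hippocampal primordium in the embryo, had a single read in the KO-labelled libraries. It had 13.9 and 49.7 normalized counts in WT against 0 and 0.90 in the KO-labelled libraries, or 67 reads against 1. The ratio of WT to the KO-labelled libraries was 67.6, with an exact 95% interval of 11.7 to 2710 that covers counting error only. The log2 fold change on the scale used was -4.32 (standard error 0.93). The adjusted p was 0.195 from limma and 0.0254 from DESeq2. Its unadjusted p was under 0.05 in all 15 alternatives, and WT replicate 1 differed from WT replicate 2 by -1.77 on the log2 scale.

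Wnt4, which is known from kidney and female reproductive tract development, had 55.5 and 177 normalized counts in WT against 35.3 and 17.1 in the KO-labelled libraries. The limma fit gave a log2 fold change of -1.96 (standard error 0.78, unadjusted p = 0.0491, adjusted p = 0.363 from limma). The call was at the edge of the threshold and stood in 4 of 15 alternatives. It was lost without any single one of the 4 libraries, when the fold change ranged from -2.79 to -1.14. Wnt6 had 1.07 and 9.20 normalized counts in WT and no read in the KO-labelled libraries. Of its 11 reads, 10 came from WT replicate 2, and the exact 95% interval of the ratio of WT to the KO-labelled libraries starts at 2.53 for counting error only. Wnt6 did not pass the threshold (unadjusted p = 0.0772, adjusted p = 0.419 from limma).

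The other ligands overlapped between the labels or stayed at low counts. Wnt7a, a ligand for the growth of brain vessels, had 686 and 1237 normalized counts in WT against 1953 and 754 in the KO-labelled libraries. Its relative Wnt7b had 105 and 412 in WT against 43.9 and 143 in the KO-labelled libraries. Both genes overlapped between the labels, with log2 fold changes of 0.40 (standard error 0.56) and -1.38 (standard error 0.88). Wnt2, with 4.27 and 30.3 normalized counts in WT against 17.1 and 70.3 in the KO-labelled libraries, also overlapped. Wnt2b, Wnt3, Wnt10a, Wnt10b and Wnt11 had at most 45.1 normalized counts in any library. Wnt1 and Wnt8a had a mean below 1 and were not tested.

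As shares of all ligand RNA by FPKM, Wnt5a took 22.6% and 21.2% in WT against 5.73% and 10.4% in the KO-labelled libraries. Wnt7a took 16.2% and 19.8% in WT against 31.7% and 28.8% in the KO-labelled libraries, so that the order of these ligands differed between the labels. Wnt5b took 30.4% and 31.9% in WT, 48.6% in KO-labelled replicate 1 and 22.3% in replicate 2. The sum over the 16 ligands was 66.9 and 94.2 FPKM in WT against 87.6 and 40.9 in the KO-labelled libraries, and overlapped. These shares are a description without a test.

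**Figure D3:**
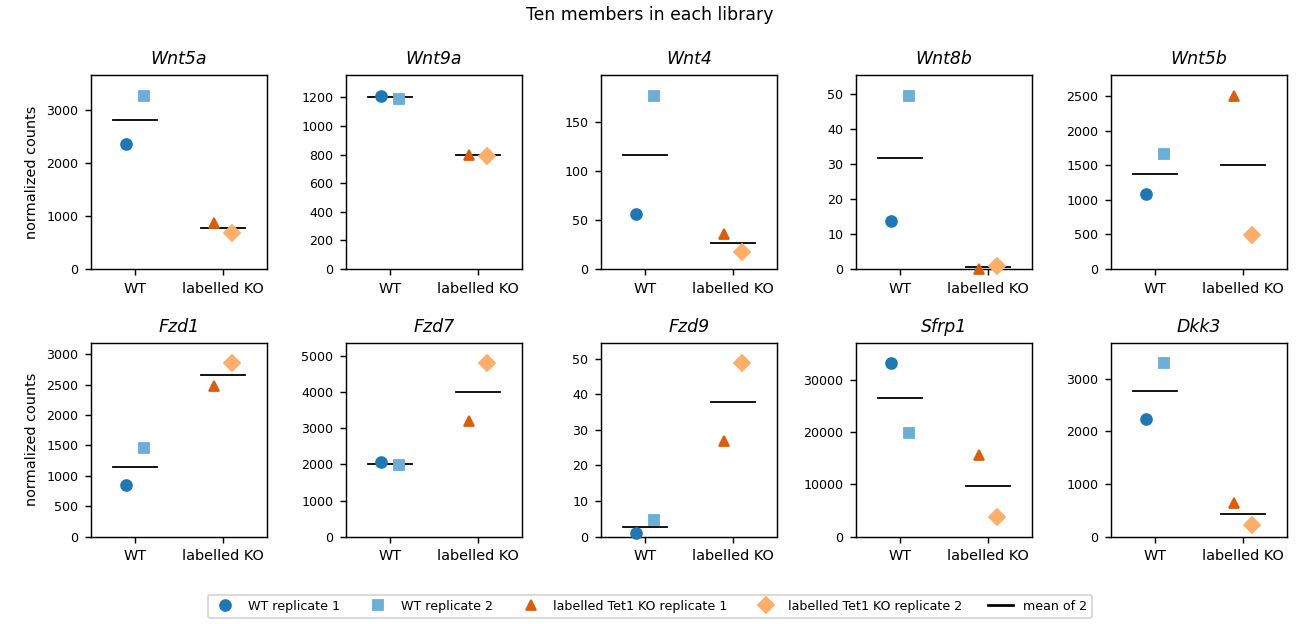
Normalized counts of 10 members in each library, with the mean of each label as a line and a linear axis from 0. Wnt5a, Wnt9a, Wnt4, Wnt8b, Sfrp1 and Dkk3 are lower and Fzd1, Fzd7 and Fzd9 higher in both KO-labelled libraries, while Wnt5b has its highest and lowest values there.

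Of the 10 Frizzled receptors, 5 were higher without overlap in the KO-labelled libraries (22.5% of all genes) and 1, Fzd10, was lower (25.4% of all genes). Of the 5, 3 passed the unadjusted threshold, where 4.54% of all genes were higher. Fzd1, a receptor of the canonical pathway, lies on chromosome 5 of mm10 from 4753839 to 4758035 on the minus strand, and its listed length of 4197 bases equals that span, so the listed gene has no intron. It had 840.8 and 1463 normalized counts in WT against 2470.5 and 2847 in the KO-labelled libraries. Both KO-labelled libraries lay above both WT libraries. WT averaged 1152 ± 440.0 (SD, n = 2) and the KO-labelled libraries 2659 ± 266 (SD, n = 2). The log2 fold change was 1.26 (standard error 0.37, unadjusted p = 0.0165, adjusted p = 0.273 from limma). The unadjusted p was 0.0683 without KO-labelled replicate 1, 0.0936 without KO-labelled replicate 2 and 0.0974 without WT replicate 1 from limma.

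Fzd7, a receptor often found on stem and progenitor cells, lies on chromosome 1 from 59482424 to 59486955 on the plus strand. It had 2056 and 1978 normalized counts in WT against 3204 and 4799 in the KO-labelled libraries. The WT libraries were close to each other, and both KO-labelled libraries were above them. As a log2 fold change, this was 0.96 (standard error 0.32, unadjusted p = 0.0276, adjusted p = 0.315 from limma). The unadjusted p from limma was 0.137 without WT replicate 1 and 0.154 without WT replicate 2.

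Fzd9, a receptor gene on chromosome 5 from 135248938 to 135251230 on the minus strand, had low counts. It had 1.07 and 4.60 normalized counts in WT against 26.8 and 48.7 in the KO-labelled libraries, or 6 reads against 79. The ratio of WT to the KO-labelled libraries was 0.0767, with an exact 95% interval of 0.0273 to 0.174 for counting error only. The limma fit gave a log2 fold change of 3.45 (standard error 0.84). The adjusted p was 0.224 from limma and 0.0324 from DESeq2. The unadjusted p from limma was 0.0574 without KO-labelled replicate 2 and 0.0816 without WT replicate 1. The level did not exceed 1.05 FPKM in any library.

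The other Frizzled receptors did not pass the threshold. Fzd8 had 849 and 1195 normalized counts in WT against 1944 and 1396 in the KO-labelled libraries, and Fzd4, the receptor of Norrin in vessels, had 628 and 394 in WT against 1198 and 710.2 in the KO-labelled libraries. Both genes were without overlap, with unadjusted p-values from limma of 0.0888 for Fzd8 and 0.084 for Fzd4. Fzd2 had 1971 and 2426 normalized counts in WT against 2551 and 2011 in the KO-labelled libraries, a log2 fold change of 0.05 (standard error 0.30). Fzd3, Fzd5 and Fzd6 overlapped between the labels, with log2 fold changes from -0.34 to -0.23. The markers of dividing cells given above moved in the same direction as Fzd1, Fzd7 and Fzd9. Summed mural markers did so too, at 81.8 and 272 FPKM in WT against 589.5 and 1413. Most of that sum was Acta2, and without overlap 1 of 7 mural markers was higher and 3 were lower. Summed neuronal markers had 20.3 and 23.8 FPKM in WT against 29.1 and 30.0. Without overlap, 5 of the 8 tested were higher and 1 was lower. The part of these lists in these results was not tested.

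Within a library, Fzd1 made up 8.73% and 14% of all Frizzled RNA by FPKM in WT against 16.9% and 20.4% in the KO-labelled libraries. Fzd2 took 23.4% and 26.6% in WT against 20.02% and 16.5% in the KO-labelled libraries. The ratio of Fzd1 to Fzd2 was 0.372 and 0.526 in WT against 0.845 and 1.24 in the KO-labelled libraries. The sum over the 10 receptors was 114.7 and 119.5 FPKM in WT against 156.9 and 165.0 in the KO-labelled libraries. The ligand sums overlapped between the labels, while the receptor sums did not. The receptor sums include Fzd1 and Fzd7, already named above by their p, and 4 of the 10 receptors overlapped. These sums were not tested.

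**Figure D4:**
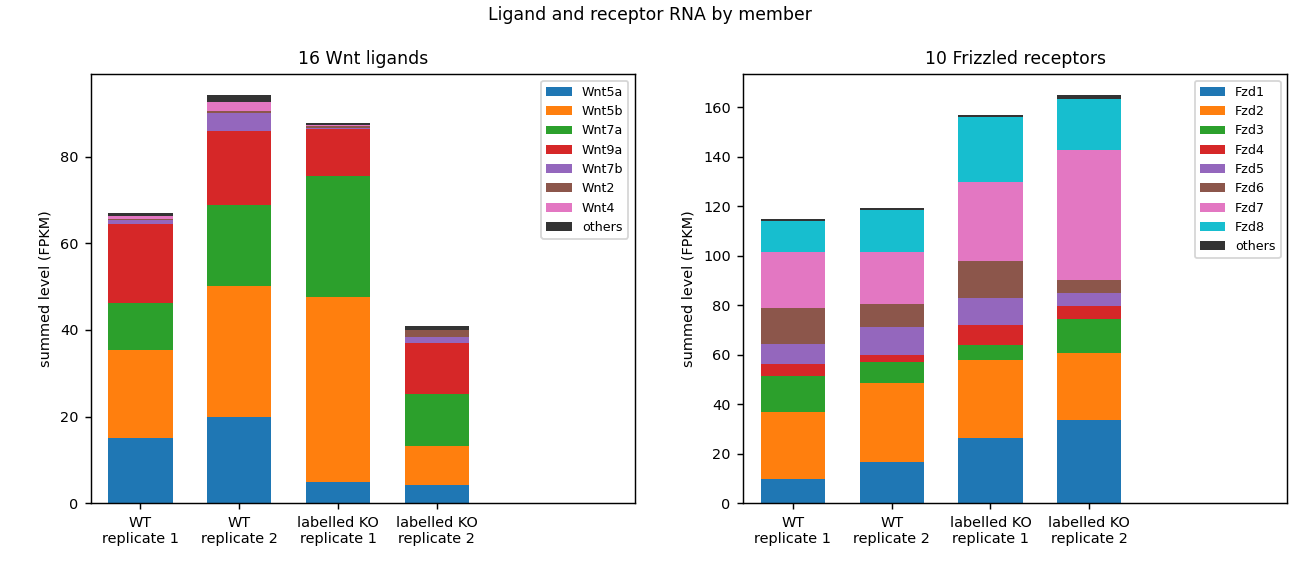
Summed level (FPKM) of the 16 Wnt ligands and the 10 Frizzled receptors in each library, stacked by member. Receptor sums are 114.7 and 119.5 in WT against 156.9 and 165.0 in the KO-labelled libraries, and the Wnt5a band is thinner in the latter.

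The co-receptors Lrp5 and Lrp6, which pair with Frizzled receptors in the beta-catenin pathway, did not pass the threshold. Lrp5 had 2397 and 2507 normalized counts in WT against 2677 and 1701 in the KO-labelled libraries, a log2 fold change of -0.20 (standard error 0.33). Lrp6 had 3265 and 2601 in WT against 3249 and 3269 in the KO-labelled libraries, a log2 fold change of 0.16 (standard error 0.29). Both overlapped between the labels.

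The secreted inhibitors summed to 415 and 269 FPKM in WT against 171 and 49.0 in the KO-labelled libraries. Sfrp1, which binds Wnt ligands, took between 80.9% and 93.7% of this in each library. Sfrp1 (chromosome 8 from 23411502 to 23449632, plus strand) had 33136 and 19798 normalized counts in WT against 15534 and 3816 in the KO-labelled libraries. Both KO-labelled libraries lay below both WT libraries, with a 4-library order that ran from WT replicate 1 down to KO-labelled replicate 2. WT averaged 26467 ± 9431 (SD, n = 2) and the KO-labelled libraries 9675 ± 8285 (SD, n = 2). The log2 fold change was -1.73 (standard error 0.72, unadjusted p = 0.0575, adjusted p = 0.381 from limma), so Sfrp1 did not pass the threshold. Its unadjusted p was under 0.05 in 6 of 15 alternatives, and the fold change was -2.75 without KO-labelled replicate 1 (unadjusted p = 0.0132 from limma) and -0.72 without KO-labelled replicate 2. The sum of the meningeal fibroblast markers, 9 of 10 of which were analysed here, ran in the same order, with 309 and 183 summed FPKM in WT against 138 and 37.2 in the KO-labelled libraries. Of those 9, Dcn was lower and Col1a2 higher at an unadjusted p under 0.05 from limma, and the collagen Col3a1 had 2.13 and 222 normalized counts in WT against 87.8 and 68.5 in the KO-labelled libraries. Most of the sum was Islr, at 238 and 150.4 FPKM in WT against 115 and 10.8, and no other of the 9 had that order of libraries. The summed endothelial markers ran in that order too, at 51.67 and 39.95 FPKM in WT against 32.99 and 3.96 in the KO-labelled libraries. Most of that sum was Slco1a4, at 51.1 and 38.9 FPKM in WT against 31.5 and 2.64, and no other endothelial marker had that order. Of 8 endothelial markers 6 were analysed. Of these, 1 (Cdh5) was higher without overlap (22.5% of all genes) and 2 were lower (25.4% of all genes). Of the 10 astrocyte markers, only Slc1a2, Sox9 and Aqp4 had the same order of libraries as Sfrp1, and Gja1 was higher without overlap. The part of these markers in the Sfrp1 values was not tested.

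Dkk3, a secreted glycoprotein of the Dickkopf family that differs from the others in its action on Wnt signaling, passed the unadjusted threshold. Dkk3 (chromosome 7 from 112116017 to 112159057, minus strand) had 2232 and 3295 normalized counts in WT against 630.5 and 229.8 in the KO-labelled libraries. Every library labelled KO was below every WT library. WT averaged 2763 ± 751 (SD, n = 2) and the KO-labelled libraries 430.1 ± 283 (SD, n = 2). As a log2 fold change, this was -2.83 (standard error 0.55, unadjusted p = 0.00285, adjusted p = 0.170 from limma), and the adjusted p was 0.000786 from DESeq2. Without WT replicate 1 the unadjusted p from limma was 0.0512, and without WT replicate 2 it was 0.0782. Dkk3 and the summed microglial markers ran in the same order of libraries, as did Slc1a3, Aldh1l1, Mbp, Myh11 and Ccdc153. The part of those markers was not tested.

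The remaining inhibitors were expressed at lower levels. Sfrp4 had 232 and 163 normalized counts in WT against 148 and 78.4 in the KO-labelled libraries (unadjusted p = 0.148, adjusted p = 0.509 from limma). Dkk2, a Dickkopf protein that binds Lrp5 and Lrp6, had 14.9 and 15.6 in WT against 4.28 and 4.51 in the KO-labelled libraries (unadjusted p = 0.0641, adjusted p = 0.393 from limma). Neither gene overlapped between the labels and neither passed the threshold. Sfrp2, with 4.27 and 75.4 normalized counts in WT against 13.9 and 57.7 in the KO-labelled libraries, differed more within a label than between labels. The ratio of summed inhibitor to summed ligand FPKM was 6.21 and 2.85 in WT against 1.95 and 1.20 in the KO-labelled libraries.

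R-spondins, which strengthen Wnt signals through Lgr receptors, were low in these cultures. Rspo1 had 6.40 and 68.0 normalized counts in WT against 1.07 and 6.31 in the KO-labelled libraries, or 80 reads against 8. The groups were separated by a margin of -0.02 on the log2 scale, and the ratio of 10.1 (exact 95% interval 4.88 to 24.2, counting error only) came mainly from WT replicate 2. Rspo3 had 12.8 and 35.9 normalized counts in WT against 9.63 and 10.8 in the KO-labelled libraries. Neither gene passed the threshold, with unadjusted p-values from limma of 0.108 for Rspo1 and 0.247 for Rspo3. Rspo2 overlapped between the labels.

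Axin2, which is switched on by beta-catenin and acts back on it, is the usual readout of the canonical pathway. It had 940.0 and 1007 normalized counts in WT against 1165 and 1250 in the KO-labelled libraries. The KO-labelled libraries lay above WT without overlap, yet the log2 fold change of 0.31 (standard error 0.28, unadjusted p = 0.31, adjusted p = 0.650 from limma) did not pass the threshold. Its constitutive relative Axin1 had 1196 and 1248 normalized counts in WT against 1279 and 1199 in the KO-labelled libraries, a log2 fold change of 0.02 (standard error 0.27). The nuclear factor Tcf7 had 719 and 622 in WT against 939.8 and 814 in the KO-labelled libraries, with an unadjusted p of 0.245 and an adjusted p of 0.607 from limma. Lef1 had at most 5.35 normalized counts in any library.

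Other genes of the pathway were read from lists by role, with 67 genes found and 65 tested. None was higher and 7 were lower at an unadjusted p under 0.05 from limma, against 4.54% higher and 9.18% lower among all genes. By the same threshold, edgeR gave 0 higher and 7 lower. Of the 21 tested genes of ligand export and the cell surface, 4 were lower. Sostdc1, a secreted antagonist that binds Lrp6, had 906.9 and 1140.3 normalized counts in WT against 226 and 34.3 in the KO-labelled libraries. Its log2 fold change was -3.51 (standard error 0.89). The adjusted p was 0.232 from limma and 0.00834 from DESeq2.

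The other 3 surface genes that were lower were Lgr4, Adgra2 and Ror1. Lgr4, an R-spondin receptor, had a log2 fold change of -1.497 (adjusted p = 0.283 from limma). Adgra2, a co-activator of Wnt7 signals in vessels, had -1.49 (adjusted p = 0.284 from limma). Ror1, a receptor of Wnt5a, had 1183 and 1021 normalized counts in WT against 449.6 and 598 in the KO-labelled libraries, a log2 fold change of -1.08 (adjusted p = 0.274 from limma). Wnt5a and this receptor were thus both lower. Ror2, at 5.33 and 39.5 normalized counts in WT against 19.3 and 40.6 in the KO-labelled libraries, overlapped. Ryk had 1985 and 2054 normalized counts in WT against 2846 and 2369 in the KO-labelled libraries. It was higher without overlap (22.5% of all genes) but did not pass the threshold (log2 fold change 0.36, unadjusted p = 0.246 from limma). Porcn and Wls, which lipidate and export every ligand, did not pass the threshold, with log2 fold changes of -1.42 (standard error 0.70) and 0.91 (standard error 0.58).

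Of 28 genes of the cytoplasm and nucleus, 3 were lower at an unadjusted p under 0.05 from limma (9.18% of all genes). By log2 fold change these were the co-repressors Tle2 (-1.77) and Tle4 (-0.91) and the beta-catenin partner Pygo1 (-1.32). Their adjusted p-values from limma were 0.275, 0.347 and 0.268. Ctnnb1, which encodes beta-catenin, had 16715 and 22812 normalized counts in WT against 27961 and 19244 in the KO-labelled libraries, and overlapped. None of the 11 planar cell polarity genes and none of the 15 tested feedback and target genes passed the threshold in either direction (13.7% of all genes). The feedback list also holds members such as Axin2, Lef1 and Tcf7, and genes of the other lists such as Nkd1 and Notum. The 65 other pathway genes tested leave out the members and count each gene once. Of these targets, Nkd1 had 12.8 and 102 normalized counts in WT against 56.7 and 47.8 in the KO-labelled libraries, and Notum had 49.1 and 63.5 in WT against 30.0 and 70.3 in the KO-labelled libraries. Both overlapped between the labels.

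**Figure D5:**
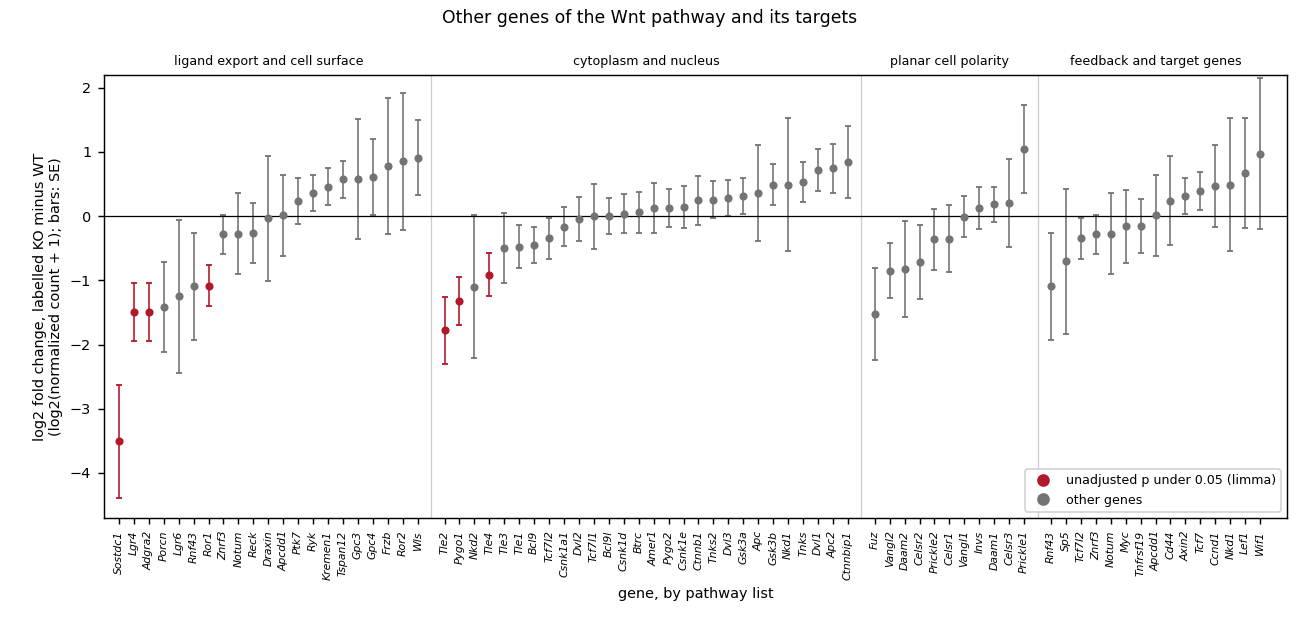
Log2 fold change between the labels for other genes of the Wnt pathway in 4 lists, with standard errors from limma. The 7 red genes have an unadjusted p under 0.05 and all lie below 0, and Sostdc1 (-3.51) lies lowest.

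The KO-labelled libraries differed more from each other than the WT libraries did. Of the 22 members with a mean of at least 50 normalized counts, 9 (40.9%) differed by more than 2-fold between the KO-labelled libraries and 2 (9.09%) between the WT libraries. Over all 12868 genes at that level the shares were 28.6% and 10.7%. Of those 22 members, 10 had their highest value in KO-labelled replicate 1 and 10 their lowest in KO-labelled replicate 2. Wnt5b, Fzd5, Fzd6 and Lrp5 did both. Without KO-labelled replicate 1 the log2 fold change of Fzd6 was -1.12, and without KO-labelled replicate 2 it was 0.50.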

How the data were processed

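RNA-seq was measured in 4 libraries, 2 labelled WT and 2 labelled Tet1 KO, grouped by the genotype and replicate number in the labels. The study describes its RNA-seq repeats as biological and gives more of them per genotype than the 2 libraries per label used here. The labels do not say whether the libraries of a label came from separate cultures. The p-values rest on the spread between the 2 libraries per label analysed here, combined with the spread of other genes. The authors filtered paired-end reads and aligned them to mm10. The aligner, the counter and the strand setting are not given in the sources used here. The authors deposited a signal value for each gene in each library. The file is named for FPKM, yet each value was a read count over the size factor of its library (0.937 and 1.09 in WT, 0.934 and 1.11 in the KO-labelled libraries). Whole reads could be recovered, because 100% of the values were multiples of 1 read within 0.01. The planned test had assumed FPKM and was kept with these normalized counts in their place. The authors' columns of genotype means, log2 fold changes and p-values were not used.

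The comparison used limma 3.58.1 in R 4.3.3 (eBayes, variance trend) on log2(normalized count + 1). Genes averaging at least 1 were kept, and p-values were adjusted by Benjamini-Hochberg over these 22094 genes. The recovered reads were also tested with edgeR 4.0.16 and with DESeq2 1.42.0. They were converted to FPKM with the listed gene length and the reads on genes. The floor was 3 reads, or 2.70 to 3.21 normalized counts, and intervals and floors cover counting error only. The fits were also run on simulated data with 1 setting of spread for every gene and both labels. The KO-labelled libraries here differed more from each other than the WT libraries. Known fold changes were placed only in genes averaging at least 50, so lower genes such as Wnt8b and Fzd9 were not covered. Values were given per library for members with an unadjusted p under 0.05, for those without overlap and a log2 fold change of at least 1, for the most abundant of each role and for those that varied most within a label, and other members were given where they help a reader. The members were taken by gene symbol, but this family and the lists were chosen with earlier results of these data known. Alternatives were other pseudocounts, filters, scalings and tools, a replicate block and leaving out each library. Plots were drawn in matplotlib 3.10.9, and tables were made with pandas 2.3.3, scipy 1.17.1 and numpy 2.4.6 in Python 3.11.15.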

Additional observations from a re-analysis of the deposited data

How the results depend on the processing

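No called member changed sign under any of the 15 alternatives. With DESeq2, 1088 genes had an adjusted p under 0.05, against 0 with limma and edgeR. When 1 library was dropped at a time, the genes with an unadjusted p under 0.05 numbered 1135 (without WT replicate 1) to 4846 (without KO-labelled replicate 1), the members that were higher 0 to 2 and lower 2 to 5, and the other pathway genes that were higher 0 to 3 and lower 0 to 12. Without WT replicate 1 no member was higher and 3 were lower, and without WT replicate 2 the genes numbered 1380, with 2 members higher and 2 lower. A lone library was assumed to vary like the others. The median log2 fold change of the members was -0.41 to 0.04 in these fits and -0.21 with all libraries. Deviations of libraries with the same replicate number had a correlation of -0.08 over the genes tested. With 1 pair of libraries per label, this cannot show whether libraries with the same number shared a preparation. With the replicate block, 2583 genes had an unadjusted p under 0.05, 0 an adjusted one, and 2 members were higher and 6 lower, with the calls of Fzd7 and Wnt4 lost and those of Sfrp1, Rspo1 and Wnt7b gained. Scaling moved the median of all genes from -0.07 to 0.06 (quantile normalization) and -0.14 (median log ratio). Members without overlap numbered 7 to 9 higher and 9 to 14 lower. Over single genes and alternatives, 547 values kept their side of the threshold, 22 lost it, 15 gained it and 7 moved beyond the spread. Few reads in 1 label limit Wnt8b, Wnt6, Fzd9 and Rspo1.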
